A study of Mus musculus with 4 samples.

Results

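Nuclear receptors are transcription factors, most of which bind DNA through a pair of zinc fingers and change their activity when a small fat-soluble molecule sits in a pocket of the protein. The genes described here are the orphan, steroid and lipid receptors of this superfamily: all genes whose platform symbol follows the systematic Nr scheme, without the clock receptors Nr1d1 and Nr1d2 and the immediate-early gene Nr4a1, together with the PPAR, vitamin D, estrogen, estrogen-related, thyroid hormone and progesterone receptors. They number 32 of the 19938 genes named on the arrays. Each of the 32 had 1 probe set, so no choice between probe sets was needed. Nr1h2, which encodes the second liver X receptor (LXR), and Nr2e3 also match the scheme and are not analysed here.

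The samples were 4 arrays of group 3 innate lymphoid cells (ILC3) carrying CCR6, taken from untreated (naive) C57BL/6 mice. The cells came from the mesenteric lymph node and were sorted as CD127+ CD90.2+ CCR6+ ST2- cells into an RNA extraction reagent. ILC3 are lymphocytes without rearranged antigen receptors. The 4 arrays form 1 group, so nothing was compared between conditions. Beyond the strain and the naive state named above, no genotype or treatment is given in the labels. No age, sex or pooling of animals is stated. Separate mice, pools or sorts behind the 4 samples are not stated, and p-values that rest on the spread between arrays, which may be partly technical, measure only that spread. Values are log2 levels, and each is followed by the SD over the 4 arrays (n = 4).

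Steroid receptors fold around their hormone on a scaffold of heat shock proteins. The glucocorticoid receptor waits mainly in the cytoplasm and enters the nucleus once hormone is bound, whereas the estrogen and progesterone receptors lie mainly in the nucleus without it. Thyroid, vitamin D, PPAR and LXR proteins stay on DNA as partners of a retinoid X receptor, where they recruit corepressors without ligand and coactivators with it. Orphan receptors are those with no settled natural ligand, and several of them compete for the same DNA half-site, AGGTCA. In lymphocytes the glucocorticoid receptor is best known as the target of anti-inflammatory steroids, and Nr2f6 as a repressor of cytokine genes in T cells.

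Signal varies between probe sets for reasons unrelated to RNA amount, so genes were called against background, and an order of levels between genes is an order of array signal, not of RNA amount. Background was the distribution of mean levels of 1237 receptor genes of smell and taste (olfactory, vomeronasal, trace amine and bitter taste). A gene was called above background when its one-sided detection p, adjusted by the Benjamini-Hochberg method over all 19938 genes, was under 0.05. Of all named genes 46.2% were called. A stricter reading counted the genes above all 14 measured genes of other organs on every array, which held for 25.0% of named genes. It was used because 4 of those 14, among them the muscle gene Ckm and the liver gene Apoa1, were themselves called.

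Of the 32 receptor genes, 7 (21.9%) were above background, beside the 46.2% of all genes, and 25 were not. The 7 were Nr2c2, Nr3c1, Thra, Nr2f6, Ppard, Nr5a1 and Nr6a1. Only Nr2c2, Nr3c1 and Thra, 3 of the 32 (9.38%), also lay above the genes of other organs on every array, beside 25.0% of all genes. Thra passed only narrowly on array 2, at 7.402 beside 7.397 for the highest gene of other organs. The median level of the 32 was 5.35, and that of all named genes was 6.16.

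**Figure D1:**
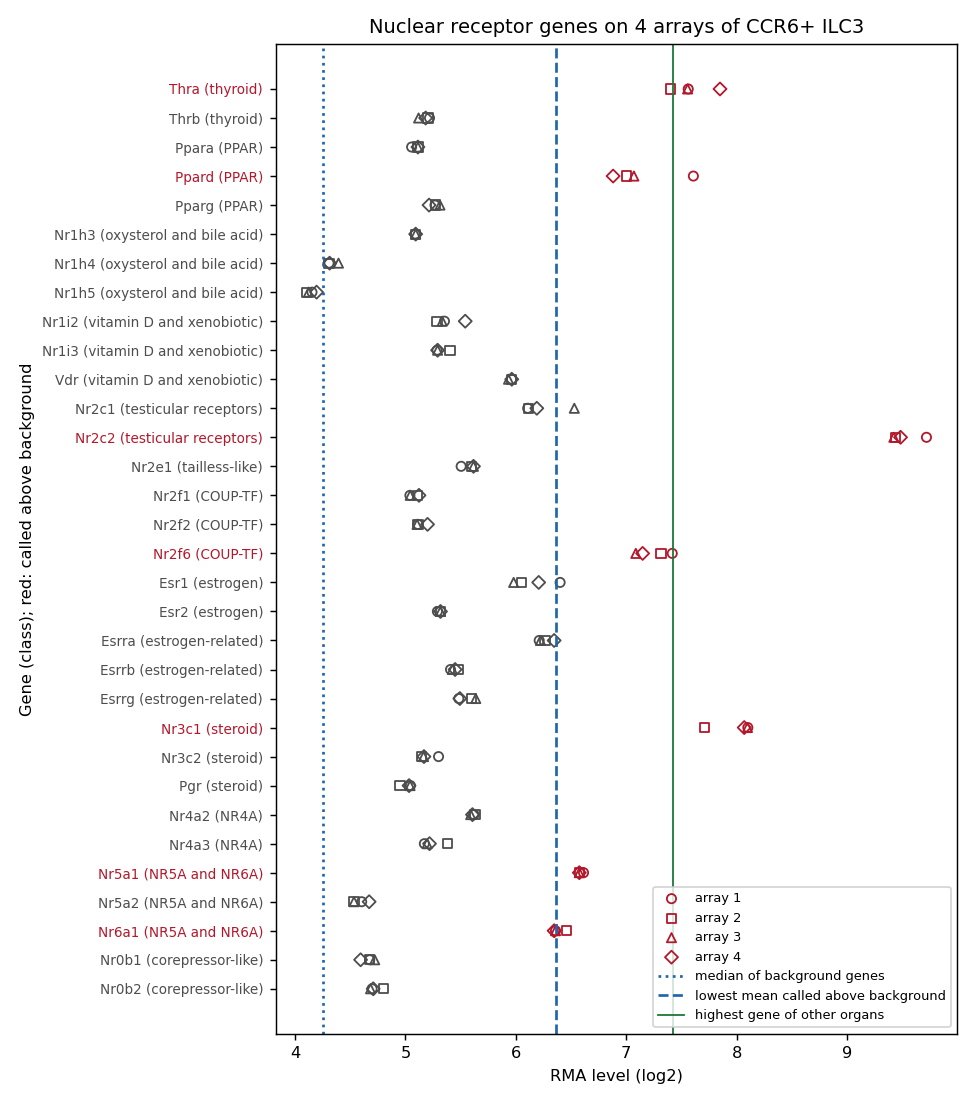
Log2 levels of the 32 receptor genes (rows, ordered by class) on each of the 4 arrays (symbols), with genes called above background in red. The dotted line is the median of the background genes at 4.25, the dashed line the lowest mean of any called gene at 6.37, and the solid line the highest value of a gene of other organs on any array at 7.42. Nr2c2 and Nr3c1 lie to the right of all lines on every array, and most other receptors lie between 4 and 6.

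The sequences before the start sites of 4 of these genes are shown as 2 called and 2 uncalled genes that differ in their content of CG pairs. They do not span the whole set, in which G and C made up 37.6% of the bases for Nr6a1 and 82.4% for Nr2f6, and Nr2f2 held the fewest CG pairs, 1. Promoters rich in the pair CG are typical of broadly active genes, and promoters poor in it of genes restricted to 1 organ. The RefSeq promoter table (build GRCm38.p6) held 29 of the 32 genes, and Nr3c1, Thra and Nr5a1 were not among them. Each line gives the 250 bases before the first listed start, 5′ to 3′ on the strand of the gene, with every CG in capitals. Nr2c2 and Nr2f6 were called above background, and Nr4a2 and Nr1i3 were not.

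Nr2c2 promoter, chr6:92092183-92092432, plus strand: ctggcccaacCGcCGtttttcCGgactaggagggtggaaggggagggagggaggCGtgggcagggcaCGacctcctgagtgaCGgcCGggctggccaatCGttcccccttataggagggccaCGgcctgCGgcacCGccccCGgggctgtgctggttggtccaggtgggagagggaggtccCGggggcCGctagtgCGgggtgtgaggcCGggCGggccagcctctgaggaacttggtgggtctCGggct
Nr2f6 promoter, chr8:71381953-71382202, minus strand: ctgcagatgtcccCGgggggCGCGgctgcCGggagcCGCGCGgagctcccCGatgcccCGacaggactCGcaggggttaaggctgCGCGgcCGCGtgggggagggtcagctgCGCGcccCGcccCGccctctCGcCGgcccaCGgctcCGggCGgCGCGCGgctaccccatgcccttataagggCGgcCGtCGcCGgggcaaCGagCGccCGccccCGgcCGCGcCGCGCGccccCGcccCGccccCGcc
Nr4a2 promoter, chr2:57124004-57124253, minus strand: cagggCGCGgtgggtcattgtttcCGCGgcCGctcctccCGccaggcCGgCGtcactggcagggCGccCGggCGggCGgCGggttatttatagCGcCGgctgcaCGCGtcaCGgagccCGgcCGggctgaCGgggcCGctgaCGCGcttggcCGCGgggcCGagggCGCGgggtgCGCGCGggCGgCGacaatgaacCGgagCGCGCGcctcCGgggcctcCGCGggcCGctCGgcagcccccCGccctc
Nr1i3 promoter, chr1:171213720-171213969, plus strand: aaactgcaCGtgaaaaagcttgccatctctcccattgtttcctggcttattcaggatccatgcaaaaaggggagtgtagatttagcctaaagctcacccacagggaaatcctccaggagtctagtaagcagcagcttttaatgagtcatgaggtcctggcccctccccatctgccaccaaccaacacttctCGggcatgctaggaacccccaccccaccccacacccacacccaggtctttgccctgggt

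The promoter of Nr2c2 held 18 CG pairs and that of Nr2f6 42, while that of Nr1i3, which encodes a receptor for foreign compounds in the liver, held 2. Nr4a2, an immediate-early gene, held 44 and was not called. Over all 15614 named genes with a promoter the median was 11, over the called genes 16 and over the genes not called 5. The 25 receptor genes with a promoter that were not called had a median of 11, above that of uncalled genes at large. This value equals the median of all named genes. The uncalled genes include most of the smell and taste receptor genes, which set the background and had a median of 1 over 1052 promoters. Among the 25, several were rich in CG, such as Pparg with 38, Thrb with 30 and Ppara with 27. Of the called receptors Ppard had 22, and Nr6a1 had 4 at the first of its 2 listed starts. The half-site AGGTCA, searched on both strands, was found in 5 of the 29 promoters (17.2%), those of Nr0b1, Nr1h4, Nr5a2, Pparg and Thrb, beside 12.2% of all promoters of the same length. The base content of 4 called genes is a description and no comparison was tested.

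**Figure D2:**
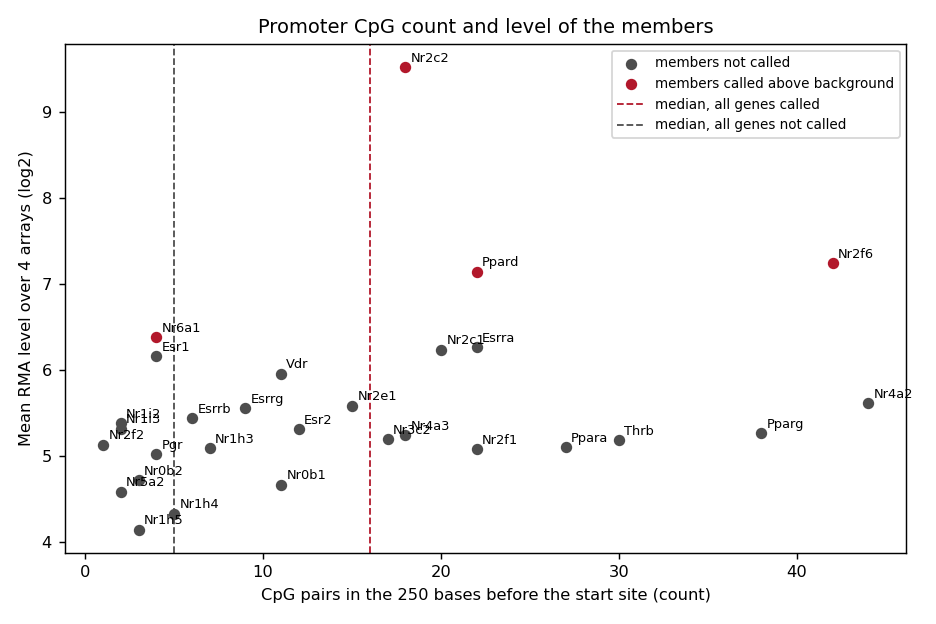
Number of CG pairs in the 250 bases before the start site (x axis) against the mean log2 level over 4 arrays (y axis) for the 29 receptor genes with a promoter. Genes called above background are red, and dashed lines mark the medians of all called genes (16) and of all genes not called (5). CG-rich promoters such as those of Nr2f6 (42) and Nr4a2 (44) occur on both sides of the call.

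Nr2c2 encodes testicular receptor 4, an orphan receptor that binds direct repeats of AGGTCA. Its level was 9.72, 9.44, 9.42 and 9.48 on arrays 1 to 4, a mean of 9.52 ± 0.14. It exceeded all 1237 background genes, with an adjusted detection p of 0.0108, and array 1 was the highest. Nr2c1, its closest relative and known partner, was at 6.11, 6.11, 6.53 and 6.19, a mean of 6.23 ± 0.20. It was not called, with an adjusted detection p of 0.0547, and array 3 stood above the other arrays. Without array 2 it was called, at 6.28 and an adjusted detection p of 0.0488, and this p ranged from 0.0488 to 0.0663 over the alternatives that keep the detection test. The RefSeq table has Nr2c2 overlapping Mrps25, a gene for a mitochondrial ribosomal protein, and whether the probe set reads the shared stretch was not tested.

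Nr3c1 encodes the glucocorticoid receptor. Its level was 8.10 on array 1, 7.71 on array 2, 8.10 on array 3 and 8.07 on array 4, a mean of 7.99 ± 0.19, with an adjusted detection p of 0.0143. Array 2 stood below the others, which lay within 0.1 of each other. The remaining steroid hormone receptors were not above background. Nr3c2, the mineralocorticoid receptor, was at 5.19 ± 0.07, Pgr, the progesterone receptor, at 5.02 ± 0.05, and Esr2, the second estrogen receptor, at 5.31 ± 0.01. Esr1, the main estrogen receptor, was at 6.40, 6.05, 5.98 and 6.21, a mean of 6.16 ± 0.19 with an adjusted detection p of 0.0636. It lay above 96.8% of the background genes, so its failure to pass does not show absence.

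Thra encodes the thyroid hormone receptor found in most tissues. It was at 7.56, 7.40, 7.56 and 7.85 on the 4 arrays, a mean of 7.59 ± 0.19 with an adjusted detection p of 0.018, and array 4 was the highest. Thrb, the form known from liver and pituitary, was at 5.18 ± 0.04 and was not called. In the RefSeq table Thra overlaps Nr1d1, whose level was 11.03 ± 0.16. Nr1d1 was highest on array 1 at 11.23 and Thra on array 4, and whether the Thra probe set lies in the shared stretch was not tested.

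Among the COUP-TF receptors, orphan receptors that mostly repress, only Nr2f6 was called. It was at 7.42, 7.31, 7.09 and 7.15, a mean of 7.24 ± 0.15 with an adjusted detection p of 0.0221. The highest of the other-organ genes ranged from 7.13 to 7.42 over the arrays, and Nr2f6 lay below it on every array. On array 1 the 2 were close, at 7.416 for Nr2f6 and 7.420 for the highest other-organ gene. Nr2f1 at 5.08 ± 0.04 and Nr2f2, known from stroma and endothelium, at 5.13 ± 0.05 were not called. Nr2e1, a receptor of neural stem cells, was at 5.58 ± 0.05 and was not called.

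Of the PPARs, which sense fatty acids and their derivatives, Ppard was called. Its values were 7.61, 7.00, 7.07 and 6.88, a mean of 7.14 ± 0.32 with an adjusted detection p of 0.0221. Array 1 stood above the others, and the SD was the largest of all 32 receptor genes, above that of 81.6% of the 500 genes nearest in level. Ppara, the form of liver and other fat-burning tissues, was at 5.10 ± 0.03 and Pparg, the form of fat tissue, macrophages and some group 2 innate lymphoid cells, at 5.27 ± 0.04, neither of them called.

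Nr5a1 and Nr6a1 are neighbours in the genome, and both were called near the limit. Nr5a1 encodes steroidogenic factor 1 of adrenal gland and gonads and was at 6.61 on array 1 and 6.57 on each of the others, a mean of 6.58 ± 0.02 with an adjusted detection p of 0.0412. Nr6a1 encodes germ cell nuclear factor and was at 6.36, 6.46, 6.36 and 6.35, a mean of 6.38 ± 0.05 with an adjusted detection p of 0.049. The lowest mean of any called gene was 6.37. Nr6a1 was no longer called without array 3 or without array 4, with an adjusted detection p of 0.0524 and 0.051, or against olfactory receptors alone, with 0.059, and over the detection test's alternatives the adjusted p lay between 0.0446 and 0.059. Syp, a gene of synapses among the genes of other organs, was called at 6.56 ± 0.15, so calls at this level carry little weight. Nr5a2, the liver relative of Nr5a1, was at 4.59 ± 0.07 and was not called.

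Receptors of oxysterols, bile acids, vitamin D and foreign compounds were not above background. Nr1h3, which encodes LXRα, was at 5.087 on array 1 and 5.092 on each of the others, a mean of 5.09 with an SD of 0.0028. Nr1h4, the bile acid receptor, was at 4.33 ± 0.04, and Nr1h5 at 4.14 ± 0.04 was the only receptor below the median of the background genes. Nr1i2 and Nr1i3, which sense foreign compounds, were at 5.38 ± 0.11 and 5.32 ± 0.06. Vdr, the vitamin D receptor, was at 5.96, 5.96, 5.93 and 5.96, a mean of 5.95 ± 0.01 with an adjusted detection p of 0.0756, and lay above 96% of the background genes.

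The estrogen-related receptors, orphan receptors that drive mitochondrial genes, were not called either. Esrra was at 6.21, 6.26, 6.22 and 6.35, a mean of 6.26 ± 0.06 with an adjusted detection p of 0.0547. Without array 2 it was called at 6.26, with an adjusted detection p of 0.0488 in a range from 0.0488 to 0.0659 over the same alternatives. Esrrb was at 5.44 ± 0.03 and Esrrg at 5.55 ± 0.08. Nr4a2 and Nr4a3, which are induced by receptor stimulation, were at 5.61 ± 0.02 and 5.24 ± 0.09, beside 7.28 ± 0.24 for Nr4a1, which was called. Nr0b1 and Nr0b2, which lack a DNA-binding domain and act as corepressors, were at 4.67 ± 0.05 and 4.72 ± 0.05.

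A looser reading asked that each of the 4 values exceed the 95th percentile of background, and it was met by 11 of the 32 (34.4%) beside 54.4% of all genes. The limma test against that percentile also called 11 (34.4%) beside 53.9%. Both added Esr1, Esrra, Nr2c1 and Vdr to the 7. Of the 25 uncalled receptors, 24 had a mean at or above the median of the background genes, so the olfactory and related genes were on the low side of the uncalled receptors. The share over all uncalled genes was not counted, so the 24 are not read as a trait of the receptors.

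Spread between arrays differed strongly among the receptors. The median SD was 0.151 for the 7 called receptors, a fold of 1.11, and 0.0454 for the 25 others, beside 0.168 for all called genes and 0.0772 for all uncalled genes. Exactly equal printed values on 2 or more arrays were found for 10 of the 32 (31.2%), beside 19% of all genes. For Esr2, Nr1h3, Ppara and Nr5a1 the value was the same on 3 arrays (12.5% of receptors, 3.68% of all genes). For these genes the SD can understate the spread, because the probe summary of RMA can return 1 value for several arrays. Of the 7 called receptors 5 had their highest value on array 1, beside 24.6% of all called genes, although for Nr3c1 the lead over array 3 was in the third decimal.

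**Figure D3:**
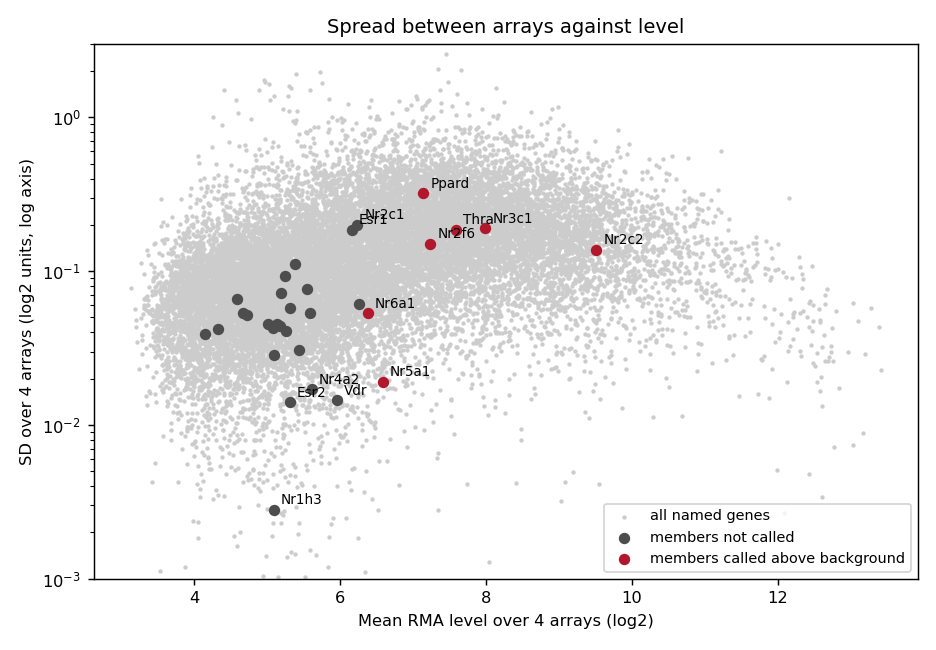
SD over 4 arrays (y axis, log scale) against the mean log2 level (x axis), for all named genes in grey, uncalled receptors in dark grey and called receptors in red. Ppard has the largest SD of the receptors at 0.321 and Nr1h3 the smallest at 0.0028, and 84 genes outside the axis range of 0.001 to 3 are not drawn.

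The sort gate and other cell types were checked on the same arrays. The gate genes Il7r, Thy1 and Ccr6 were called, with means of 12.56, 11.36 and 10.49, as were all 8 measured ILC3 markers. B cell markers were called in 10 of 11 cases, beside 46.2% of all genes, and their mean per array was 8.78, 7.86, 8.96 and 7.82. T cell markers were called in 10 of 12 cases with list means from 7.46 to 7.72, natural killer and ILC1 markers in 7 of 12 (6.46 to 6.95) and group 2 innate lymphoid markers in 4 of 8 (6.35 to 6.63). For dendritic cells 5 of 10 markers were called (6.03 to 6.37), stromal and endothelial markers in 5 of 10 (6.25 to 6.33), and monocyte and macrophage markers in 2 of 9 (5.74 to 6.10). The group 2 innate lymphoid, dendritic and stromal shares, each 50%, lay near the 46.2% of all genes, and the monocyte share, 22.2%, lay below it. These counts are not read as a sign of those cells. The part of these cells in the receptor levels was not tested, and in bulk RNA fewer cells of a type cannot be told apart from less RNA per cell.

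Partner and related receptors outside the set were examined next. Of 13 measured, 9 (69.2%) were called, beside 46.2% of all genes. Rxrb and Rxra, the retinoid X receptors that pair with thyroid, PPAR, LXR and vitamin D receptors, were at 7.29 ± 0.04 and 6.67 ± 0.22, while Rxrg at 4.34 was not called. Rora at 9.88 ± 0.12 and the retinoic acid receptors Rara at 9.28 ± 0.12 and Rarg at 8.90 ± 0.13 were called. Hnf4a, a liver and gut receptor, was called at 6.46 ± 0.07, and was not against olfactory receptors alone or without array 3. Rarb, Rorb and Hnf4g were not called, at 5.13, 4.28 and 4.02.

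Coregulators, which receptors recruit to open or close chromatin, were called in 16 of 18 cases (88.9%), beside 46.2% of all genes, with a median level of 8.45. The acetyltransferases Crebbp and Ep300 were at 10.40 ± 0.05 and 9.29 ± 0.11, the coactivator Ncoa3 at 8.91 ± 0.12. Subunits of the corepressor complex were also called, Gps2 at 9.55 ± 0.27, Tbl1xr1 at 9.47 ± 0.13 and Tbl1x at 9.26 ± 0.14. The exceptions were Ppargc1a and Ppargc1b, the coactivators that work with PPAR and estrogen-related receptors, at 4.61 ± 0.24 and 5.15 ± 0.17.

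**Figure D4:**
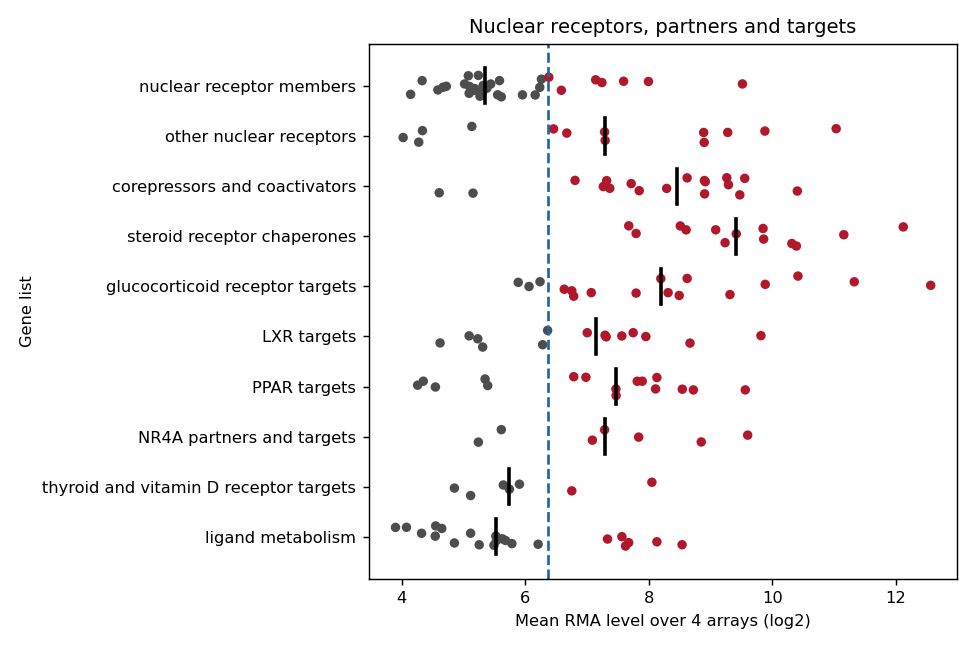
Mean log2 level over 4 arrays (x axis) of the 32 receptors and of the genes in 9 lists of partners, coregulators, targets and ligand enzymes (rows), with called genes in red, uncalled genes in grey and a black bar at each median. The dashed line is the lowest mean of any called gene, 6.37. The receptors have a median of 5.35, the coregulators 8.45 and the steroid receptor chaperones 9.42.

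Chaperones of steroid receptors were called in 13 of 13 cases, beside 46.2% of all genes, with a median level of 9.42. Hspa8 was at 12.12 ± 0.09, Hsp90aa1, the core of the scaffold, at 11.16 ± 0.17, Bag1 at 10.39 ± 0.07 and Ptges3, the p23 cochaperone, at 10.32 ± 0.08. These genes serve many other client proteins as well.

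Genes known to respond to the glucocorticoid receptor were called in 14 of 17 cases (82.4%), beside 46.2% of all genes, with a median level of 8.19. Il7r, Cxcr4, Nfkbia at 10.41 ± 0.04, Sesn1 at 9.88 ± 0.09, Zfp36 at 9.31 ± 0.20 and Dusp1 at 8.62 ± 0.18 had the highest signals of the list, and other pathways induce most of them too. Il7r is also a gene of the sort gate (CD127), so its call is not separate from the sort. Fkbp5 is counted among the chaperones too, and Klf9 among the thyroid and vitamin D receptor targets. Errfi1 at 6.24, Sgk1 at 6.06 and Mt2 at 5.89 were not called, although Errfi1 was without array 1, at 6.32. Fkbp5 and Tsc22d3 are widely read as markers of steroid action and were picked here after their values were seen. Fkbp5 was at 7.71, 7.37, 8.08 and 8.01, and Tsc22d3, which encodes GILZ, at 8.61, 8.24, 8.61 and 8.51. Both were lowest on array 2, as Nr3c1 was. Per1 and Dusp1, also called targets, were lowest on array 3, at 8.02 and 8.36. In all, 6 of the 14 called targets (42.9%) were lowest on array 2, 5 on array 4 and 3 on array 3. The share lowest on array 2 was 20.7% over all called genes, 37.5% among called coregulators and among called LXR targets, and 30.8% among chaperones. With 4 arrays no correlation was computed.

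Of 22 measured enzymes that make or remove receptor ligands, 6 (27.3%) were above background, beside 46.2% of all genes. Hsd11b1, which regenerates active glucocorticoid inside cells, was at 7.72, 7.83, 7.53 and 7.41, a mean of 7.62 ± 0.19, and H6pd, which supplies its cofactor, at 7.56 ± 0.07. Both were called and lay above the genes of other organs on every array. Hsd11b2, which inactivates glucocorticoid, was at 6.21 ± 0.03 and was not called, although it passed both looser readings, with every value above the 95th percentile of background and by limma's test. Hsd17b11 at 8.54 ± 0.29, Hsd17b12 at 8.13 ± 0.25 and Hsd17b4 at 7.67 ± 0.20, which also act in fatty acid metabolism, and Srd5a3 at 7.33 ± 0.71, which also serves protein glycosylation, made up the rest. Star and Cyp27a1, which handle cholesterol in mitochondria, were at 5.78 and 5.68 and were not called.

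LXR targets were called in 8 of 14 cases (57.1%), beside 46.2% of all genes, with a median of 7.15. The list includes the receptor gene Nr1h3, which was not called. Lpcat3, a phospholipid enzyme, was at 8.67 ± 0.17, the cholesterol exporter Abcg1 at 7.75 ± 0.15, Mylip, which marks the LDL receptor for breakdown, at 7.56 ± 0.36 and Fasn at 7.31 ± 0.14. Apoe was at 10.20, 9.32, 10.52 and 9.22 and Scd1 at 8.78, 7.22, 9.06 and 6.76. Both were higher on arrays 1 and 3 than on the others, as was the mean of the B cell markers, and the part of B cells in these values was not tested. Pltp at 6.36, Scd2 at 6.28 and Abcg8 at 5.31 were not called, although Pltp was without array 2 or without array 4, at 6.32 and 6.41.

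PPAR targets were called in 11 of 16 cases (68.8%), beside 46.2% of all genes, with a median of 7.47. The called members named by the highest signal were enzymes of mitochondrial fatty acid oxidation, Hadha at 9.56 ± 0.08, Hadhb at 8.72 ± 0.15, Acadm at 8.54 ± 0.37, Acadl at 8.13 ± 0.16 and Acadvl at 8.11 ± 0.12. Of the 5 targets not called, Angptl4 at 5.39, Ehhadh at 5.35 and Pdk4 at 4.55 had the highest signals. Cpt1a at 7.81 ± 0.25 and Plin2 at 7.47 ± 0.31, chosen after their values were seen, were called, so the list was mixed. Fabp5, a fatty acid carrier, was at 6.69, 8.47, 8.57 and 7.84, so that array 1 was far below the others, whereas Ppard was highest on array 1. Chosen after its values were seen, Cd36, a fatty acid transporter, was also lowest there, at 5.65, 7.64, 7.51 and 7.13. Of the 11 called PPAR targets, 4 (36.4%) were lowest on array 1 and 0 were highest there, beside 22.5% and 24.6% of all called genes.

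Targets of the thyroid and vitamin D receptors were called in 2 of 7 cases (28.6%), beside 46.2% of all genes. These were Bcl3 at 8.05 ± 0.30 and Klf9. Klf9, a target of both thyroid hormone and glucocorticoids, was at 7.72, 6.50, 6.57 and 6.23, highest on array 1. Mt2, a metallothionein, was at 7.40 on that array and between 5.30 and 5.47 on the others. Mt1, its paralogue among the glucocorticoid receptor targets, was called and was instead highest on array 2, at 6.58, 7.29, 6.86 and 6.41. Hr, Camp and Thrsp were at 5.91, 5.74 and 5.64 and were not called. The list of NR4A receptors with their partners and targets was called in 5 of 7 cases (71.4%), beside the same 46.2%. The called genes were Tox at 9.60 ± 0.18, Ikzf2 at 8.85 ± 0.21, Egr2 at 7.84 ± 0.26, Egr3 at 7.09 ± 0.12 and Nr4a1. The uncalled ones were Nr4a2 and Nr4a3, themselves receptors of the set, and Nr4a1 was also counted among the related receptors.

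**Figure D5:**
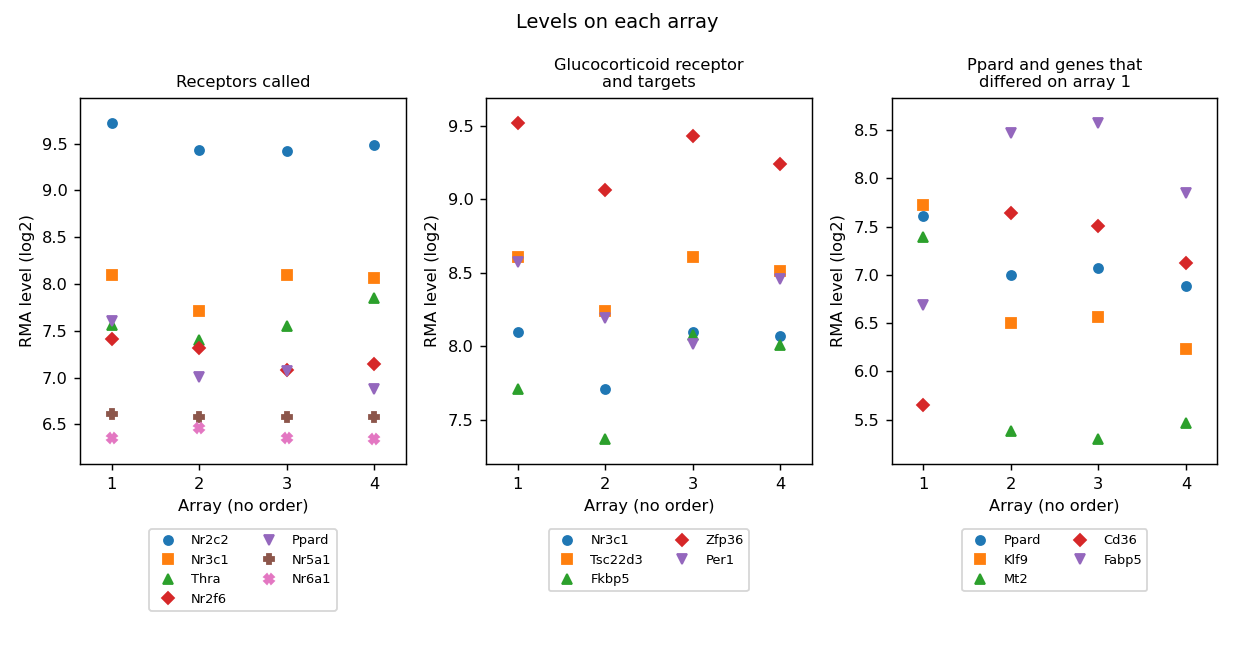
Log2 levels on each of the 4 arrays (x axis, unordered) for the 7 called receptors (left), for the glucocorticoid receptor gene Nr3c1 with 4 of its targets (middle) and for Ppard with 4 genes that were highest or lowest on array 1 (right), the targets and genes picked after their values were seen. Nr3c1, Fkbp5, Tsc22d3 and Zfp36 are lowest on array 2 and Per1 on array 3, and on array 1 Ppard, Klf9 and Mt2 are highest while Cd36 and Fabp5 are lowest.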

How the data were processed

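Biotin-labelled RNA of 4 samples was measured. The authors deposited log2 levels, 1 per probe set, which RMA produced per the submitters' processing notes; RMA's version is not given in the sources used here. Among the 35556 probe sets, 21789 had 1 gene symbol in GEO's platform annotation, 1621 had several and were left unnamed, and 12146 were not listed. Symbols were updated through 21698 Entrez matches in the RefSeq table of GRCm38.p6. For the 999 genes with several probe sets the one with the highest mean was used. Detection p-values counted background genes at or above a gene's mean, were adjusted by Benjamini-Hochberg over all 19938 genes and could not fall below 0.000808. These p-values are over genes and not over samples. limma 3.58.1 gave the alternative test. The number of arrays limits the precision. Calculations were tested on simulated data. All named lists hold genes chosen from general knowledge, and the members and lists were chosen with earlier results of these data known. All receptors are named. Up to 6 called and 3 uncalled genes with the highest means were named per list, and up to 4 and 1 per marker list, where only counts are given for most. Other genes were named after their values were seen.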

Additional observations from a re-analysis of the deposited data

Results flagged for a closer look

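In 12 of the 32 receptor genes 1 array stood apart from the other 3 by Dixon's criterion. Chance passes this criterion in about 1 of 20 groups of values without ties. Ties were frequent here and the share over all genes was not counted, so the 12 are not read as an excess. In 4 of the 12 the other 3 arrays held 1 identical value, so any difference passes: Esr2 at 5.29, Nr1h3 at 5.09, Ppara at 5.06 and Nr5a1 at 6.61 on array 1. Nr1h4, Nr2f2, Nr6a1 and Vdr held 1 identical value on 2 arrays. Array 2 was apart for Nr3c1 at 7.71, Nr1i3 at 5.40, Nr6a1 at 6.46 and Pgr at 4.95. Array 1 was apart for Nr3c2 at 5.30, array 3 for Nr1h4 at 4.39 and Vdr at 5.93, and array 4 for Nr2f2 at 5.20. Of these genes Nr3c1, Nr5a1 and Nr6a1 were called above background, and Nr3c1 was called with and without array 2.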

How the results depend on the processing

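Of the 32 receptors, 27 kept their side of the threshold under all 11 alternatives, 6 of them called and 21 not. The exceptions were Nr6a1, Esrra, Nr2c1, Esr1 and Vdr. The number called was 7, and it was 11 both with all values above the 95th percentile of background and with limma's test. It was 6 with olfactory receptors as background, 9 with adjustment over genes above the background median, and 7 with the mean of a gene's probe sets, quantile normalization or median centring. Leaving out 1 array at a time gave 6 to 9 called receptors, 3 above the genes of other organs each time, and a median SD of 0.0488 to 0.0534. List counts ranged, with 1 array left out, from 8 to 9 for related receptors, 14 to 15 for glucocorticoid receptor targets and 8 to 9 for LXR targets. They stayed at 16 for coregulators, 13 for chaperones, 11 for PPAR targets, 2 for thyroid and vitamin D receptor targets, 5 for NR4A genes and 6 for ligand enzymes. Of 74 other named genes, 7 changed side under some alternative. The cause was not tested. The background correction was not varied, since raw intensities were not used here. No paired analysis was possible because the series has 1 group.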
